A study of Mus musculus with 9 samples.

Results

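The mitochondrial carrier family is the group of solute carrier 25 proteins, named Slc25a with a number in the mouse. Its members were taken here as every row of the deposited count table whose symbol starts with Slc25a, leaving out 4 (Slc25a1, Slc25a20, Slc25a37 and Slc25a38), which gave 41 of 17769 genes. RNA was measured in bone marrow cells of C57BL/6N mice sorted by flow cytometry as MEP (megakaryocyte-erythroid progenitors, which give rise to red cells and platelets). E12 carried SclCre and the allele labelled Exon12 and was taken 6 weeks after tamoxifen, VF carried SclCre and V617F and was taken 12 weeks after it, and WT was taken at 12 weeks. Each group had 3 libraries, and the protocol gives 5 daily injections of tamoxifen to induce the JAK2 mutations. SclCre is a tamoxifen-inducible recombinase active in blood stem and progenitor cells, V617F is the activating JAK2 change frequent in myeloproliferative neoplasms, and exon 12 changes of JAK2 are found in polycythemia vera. Whether WT carried SclCre is not stated, and a comparison with E12 mixes its allele with its earlier time point.

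Mitochondrial carriers sit in the inner membrane of the mitochondrion and exchange nucleotides, phosphate, amino acids, keto acids and cofactors between the cytosol and the matrix. The ADP/ATP carriers bring ADP in and ATP out, the phosphate carrier brings in the phosphate needed to make ATP, and other members link the matrix to the urea cycle, to nucleotide and methyl group metabolism and to iron handling. Developing red cells depend on such exchange, since heme synthesis begins and ends in the mitochondrion.

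E12 libraries held 20328414 to 23499914 counts, VF libraries 19256431 to 21331168 and WT libraries 33838681 to 39736096. Of the genes in the table, 12.4% to 18.7% had no count in E12 libraries, 10.7% to 12.4% in VF libraries and 27.2% to 30.1% in WT libraries. WT 50 stood apart with a TMM factor of 0.456, and hemoglobin genes took 3.37% of the counts in E12 5. The sums of 12 erythroid markers were 8414 to 25610 CPM (counts scaled to library size with TMM factors) in E12 libraries, 1155 to 1752 in VF libraries and 21210 to 35780 in WT libraries, and those of 10 megakaryocyte markers 366.8 to 445.4, 1905 to 2449 and 62.13 to 175.6 CPM in the same groups. In the erythroid list Tfrc, Hba-a1, Hbb-bs, Hbb-bt, Slc4a1 and Alas2 had their highest library in E12, and the other markers had theirs in WT. Tfrc ran from 797.7 to 1621 CPM in E12 and from 89.6 to 144.6 in WT, while Car2 ran from 4575 to 6207 and from 12740 to 16920. Cd34, low in the usual MEP gate, ran from 119 to 288 CPM in E12, from 633 to 675 in VF and from 2.77 to 4.97 in WT. Of 12 neutrophil and monocyte markers the sums were 1854 to 2350 CPM in E12 libraries, 7134 to 13190 in VF libraries and 313.5 to 4406 in WT libraries. Mpo alone had 4963 to 9088 CPM in VF libraries. In that list S100a8, S100a9 and Ltf had their highest library in WT, and the other markers had theirs in VF. S100a8 ran from 97.51 to 2986 CPM across WT libraries, overlapping with VF at 192.2 to 353.2. Sums of 7 B cell markers reached their highest values in WT libraries, at 328.3 to 3771 CPM. VF libraries stayed at 127.5 to 253.6 CPM for these, while E12 libraries spanned 28.27 to 611. The part of cell composition in the results below was not tested, and in sorted bulk samples fewer cells of a type and less RNA per cell cannot be told apart. The WT libraries also carry facility numbers of another range than the mutant libraries, so genotype and that difference cannot be told apart.

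The starts of 4 members are shown as examples of a large change in RNA or of a searched motif. Slc25a5 and Slc25a21 had the largest falls against WT, Slc25a24 one of the largest rises, and Slc25a12 is the called riser whose window holds a GATA core. Each sequence is the 250 bases before a RefSeq start on GRCm38.p6, on the gene's strand, in lower case with the GATA core in capitals.
Slc25a5: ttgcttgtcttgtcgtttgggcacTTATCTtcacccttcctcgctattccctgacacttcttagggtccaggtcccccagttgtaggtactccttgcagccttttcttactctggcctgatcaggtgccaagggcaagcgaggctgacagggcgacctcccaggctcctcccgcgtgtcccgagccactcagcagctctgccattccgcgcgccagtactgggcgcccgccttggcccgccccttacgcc
Slc25a21: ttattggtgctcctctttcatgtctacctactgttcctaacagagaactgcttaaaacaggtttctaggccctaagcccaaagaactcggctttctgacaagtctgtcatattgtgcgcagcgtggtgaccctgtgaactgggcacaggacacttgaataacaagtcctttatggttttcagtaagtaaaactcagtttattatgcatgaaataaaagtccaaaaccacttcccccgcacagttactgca
Slc25a24: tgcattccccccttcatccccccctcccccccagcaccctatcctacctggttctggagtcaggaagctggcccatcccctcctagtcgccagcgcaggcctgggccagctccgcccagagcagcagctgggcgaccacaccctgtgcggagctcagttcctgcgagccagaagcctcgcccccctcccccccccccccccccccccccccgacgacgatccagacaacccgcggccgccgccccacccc
Slc25a12: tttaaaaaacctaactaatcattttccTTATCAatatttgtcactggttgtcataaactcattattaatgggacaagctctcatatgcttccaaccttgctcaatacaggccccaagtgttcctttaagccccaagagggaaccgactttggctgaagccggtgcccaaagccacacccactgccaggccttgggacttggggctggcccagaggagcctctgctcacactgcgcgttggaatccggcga
These windows lie at chrX:36795347-36795596 (plus strand), chr12:57197473-57197722 (minus), chr3:109122899-109123148 (plus) and chr2:71367756-71368005 (minus). The bases just after the start were found in a GENCODE M21 transcript of the gene for Slc25a21 and Slc25a24, but not for Slc25a5 and Slc25a12. The GATA core searched was AGATAA or TGATAA on either strand, the letters that blood-forming GATA factors prefer. It begins 226 bases before the start of Slc25a5 and 223 bases before that of Slc25a12, and the windows of Slc25a21 and Slc25a24 do not contain these letters. Of the 31 members with a window, 3 (9.68%) held it in at least 1 window, namely Slc25a5, Slc25a12 and Slc25a53, against 18.84% of the 27025 genes in the promoter table. The core of the NRF1 motif, GCGCATGC or GCGCACGC on either strand, was found before 1 member (3.23%), the testis ADP/ATP carrier Slc25a31, against 5.09% of all genes. The median GC content was 57.6% in the member windows and 52.4% in all windows.

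Per base of transcript the family was led by the same few carriers in each group. Slc25a5, an ADP/ATP carrier found in most tissues, had 931 ± 48.2 CPM per kb in E12, 835 ± 89.6 in VF and 4996 ± 3707 in WT (SD, n = 3 each). Slc25a3, the phosphate carrier, came next with 439 ± 28.5, 245 ± 16.4 and 901 ± 321 CPM per kb in E12, VF and WT. Slc25a4, the ADP/ATP carrier of heart and muscle, followed with 254 ± 39.9, 187 ± 10.3 and 355 ± 133 CPM per kb in the same groups. These 3 did not overlap with the next in order within any group. Slc25a39, which carries glutathione, stood next at 176 ± 10.7, 133 ± 6.81 and 183 ± 8.10 CPM per kb in E12, VF and WT, and in WT it overlapped with Slc25a17. Below it, Slc25a11 (the oxoglutarate carrier) and Slc25a17 (the peroxisomal cofactor carrier) overlapped in E12 and WT but not in VF. At the other end, Slc25a2, Slc25a18, Slc25a31 and Slc25a34 did not pass the filter on low counts, so 37 members were tested. Slc25a31 had 1 count in total over the 9 libraries, in VF 1.

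The summed level of all 41 members was 3670 ± 230 CPM in E12, 2944 ± 127 in VF and 9763 ± 5186 in WT (SD, n = 3 each). Slc25a5 made up 32.9% ± 0.709 of the family's counts in E12, 36.7% ± 2.44 in VF and 61.8% ± 12.8 in WT, reaching 76.4% in WT 50. Without Slc25a5 the sums were 2465 ± 172 CPM in E12, 1863 ± 24.1 in VF and 3292 ± 420 in WT, with no overlap between the groups. Among the ADP/ATP carriers Slc25a4 and Slc25a5, per kb, Slc25a5 held 78.6% ± 1.87 in E12, 81.6% ± 1.42 in VF and 92.3% ± 2.27 in WT. The lowest WT library stood at 90.7%, above the highest mutant library at 83.2%.

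**Figure D1:**
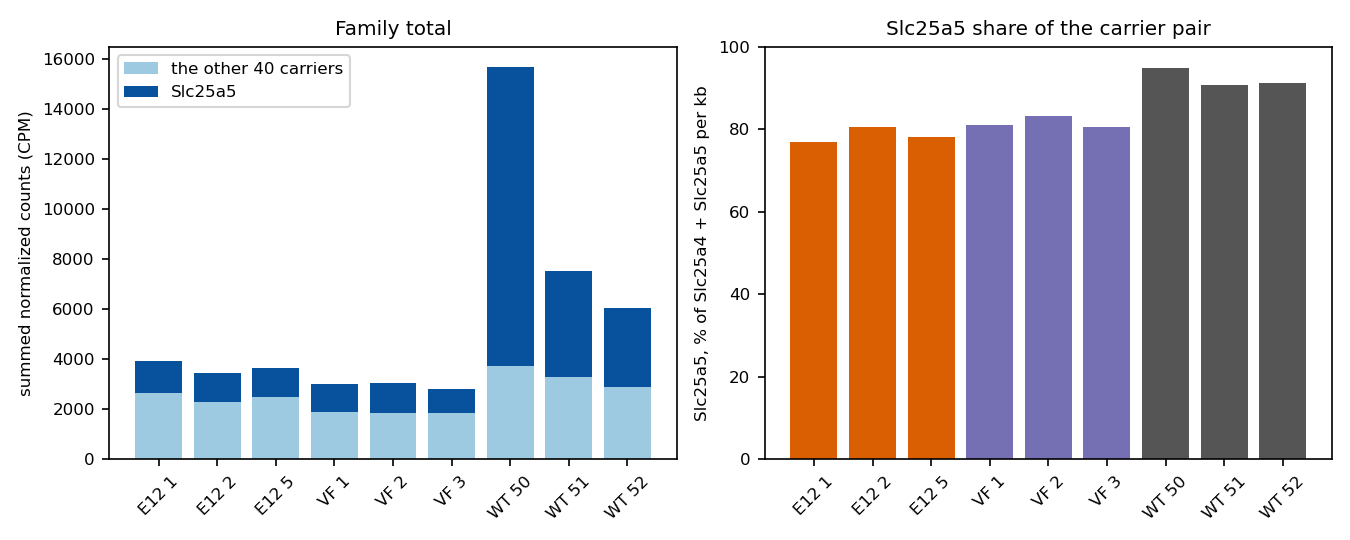
Left, summed CPM of the 41 carriers in each of the 9 libraries, with Slc25a5 in dark blue on top of the other 40; right, the share of Slc25a5 in the summed level per kb of Slc25a4 and Slc25a5, in percent. WT 50 stands highest at 15691 CPM, and all 3 WT libraries have a larger Slc25a5 share (90.7% to 94.9%) than the 6 mutant libraries (77.0% to 83.2%).

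In VF against WT, 9 of the 37 tested members were higher and 8 lower (edgeR, adjusted p under 0.05), with no common direction. That is 24.3% and 21.6% of the members, beside 27.7% of all 13608 tested genes higher and 20.9% lower, so the family's shares were near those of all genes. The median log2 fold change was 0.22 over the tested members and 0.36 over all tested genes. Amino acid carriers had 4 higher and 0 lower of 6 tested (2 and 1 with the length offset described below), cofactor and nucleotide carriers 0 and 3 of 9 (0 and 5), and ADP/ATP, phosphate and ATP-Mg carriers 2 and 3 of 7 (2 and 2). In E12 against WT, 8 members were higher and 5 lower, 21.6% and 13.5%, beside 23.9% and 18.1% of all genes, with medians of 0.26 for the members and 0.36 for all genes. There the amino acid carriers had 4 higher and 0 lower of 6 (3 and 0 with the offset), the cofactor and nucleotide carriers 1 and 3 of 9 (0 and 4), and the ADP/ATP, phosphate and ATP-Mg carriers 2 and 2 of 7 (1 and 3). Without any one VF library 5 members were lower in VF against WT, beside 14.1% to 14.8% of all genes, and without WT 50 or WT 52 there were 14, beside 27.1% and 26.1%. In E12 against WT, 4 or 5 were higher without 1 E12 library (16.4% to 18.4% of all genes), 1 to 3 were lower without 1 mutant library (9.48% to 14.9%), and 10 or 11 were lower without WT 50 or WT 52 (24% and 24.5%). Fitted on its own 6 libraries, VF against WT had 8 higher and 5 lower, beside 21.3% and 16.2% of all genes, and Slc25a4, Slc25a17, Slc25a26 and Slc25a46 were no longer called. E12 against WT fitted in this way had 3 higher (Slc25a15, Slc25a22 and Slc25a24) and 1 lower (Slc25a5), beside 12.7% and 10.5% of all genes. Both comparisons use the same WT libraries, so their results are given side by side and not as support for each other.

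Genes under 1000 bases took 6.92% to 8.79% of the counts in E12 libraries, 8.24% to 8.97% in VF libraries and 11.2% to 27.9% in WT libraries, and the calls depended on gene length. With an offset that removes the relation to length in each library, VF against WT had 5 members higher and 14 lower (edgeR), beside 14.5% and 37% of all genes, and 28.1% of all calls were then higher in VF, against 57% without the offset. E12 against WT had 4 higher and 12 lower with the offset, beside 10.8% and 27.5% of all genes. The medians with the offset were -0.27 for the members and -0.55 for all genes in VF against WT, and -0.14 and -0.40 in E12 against WT. Without the offset, the 17 tested members under 2000 bases had 3 higher and 6 lower in VF against WT and the 20 longer ones 6 higher and 2 lower. Of all tested genes, the 4303 under 2000 bases had 498 higher and 1924 lower there, and the 9305 longer ones 3272 and 918. In E12 against WT the shorter members had 1 higher and 4 lower and the longer ones 7 higher and 1 lower. Over all tested genes these were 353 and 1874 for the shorter and 2898 and 592 for the longer, so the members followed the general relation to length. Across the 37 tested members the Spearman correlation of fold change with length was 0.29 in VF against WT and 0.43 in E12 against WT, as a description of genes measured in the same libraries, beside 0.44 and 0.50 over all tested genes.

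**Figure D2:**
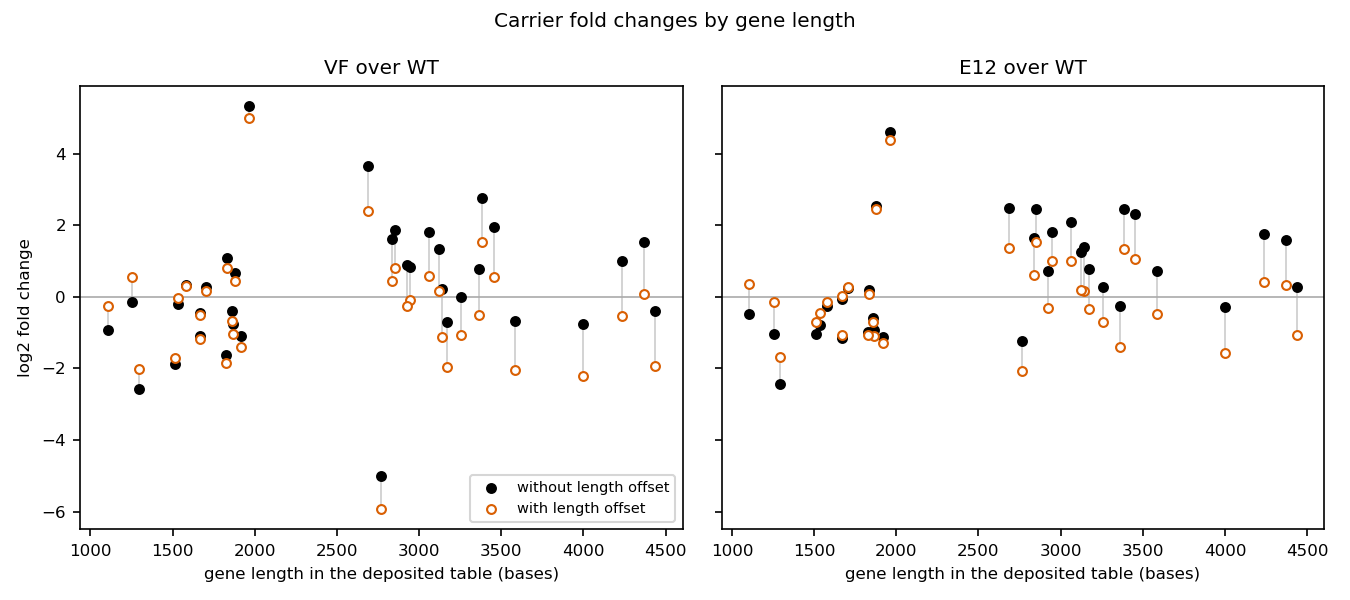
Log2 fold change over WT (vertical) of 35 of the 37 tested carriers against the gene length in the deposited table in bases (horizontal), for VF on the left and E12 on the right; black points are without and orange circles with the length offset, joined per gene. Slc25a41, which has no WT count, is among those left out. Carriers over 2000 bases move down with the offset, and Slc25a21 in VF is the lowest point with (-5.93) and without it (-5.00).

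Of the carriers that supply ATP synthesis, Slc25a5 fell most. Its level was 1276, 1158 and 1181 CPM in E12, 1110, 1180 and 953 CPM in VF, and 11980, 4242 and 3190 CPM in WT. The lowest WT library lay above all mutant libraries, and WT 50 was far above the other WT libraries. The log2 fold change was -2.58 ± 0.51 (SE) in VF against WT (edgeR, adjusted p = 0.00374) and -2.43 ± 0.51 in E12 against WT (adjusted p = 0.00669). On the authors' deposited log2 levels the falls were smaller, -0.77 in VF and -0.89 in E12 (limma, adjusted p = 0.0209 and 0.0146), and without WT 50 the edgeR values were -1.93 and -1.77. GENCODE M21 lists 1 pseudogene named after Slc25a5, and reads shared with such copies could have been counted for either.

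Slc25a3 had 708, 621 and 663 CPM in E12, 388, 382 and 342 in VF and 1907, 1200 and 979 in WT. The 3 groups did not overlap, with VF lowest. It fell by 1.88 ± 0.31 on the log2 scale in VF against WT (edgeR, adjusted p = 0.00175) and by 1.04 ± 0.30 in E12 against WT (adjusted p = 0.0234). On the deposited levels the VF call was lost, and the E12 value was 0.24, in the opposite direction; the E12 call was also lost without any one E12 library. Slc25a4 had 325, 237 and 281 CPM in E12, 220, 203 and 198 in VF and 549, 372 and 258 in WT. VF lay below WT and E12 overlapped with WT. Its log2 fold change was -0.93 ± 0.31 in VF against WT (edgeR, adjusted p = 0.0324), a call lost without any one VF library or E12 5, and -0.48 ± 0.30 in E12 against WT (adjusted p = 0.226). The VF value was -0.27 with the length offset (adjusted p = 0.236) and 0.27 on the deposited levels, and the E12 value turned to 0.36 with the offset (adjusted p = 0.148) and to 0.49 on the deposited levels (limma, adjusted p = 0.0487).

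The ATP-Mg carriers exchange ATP-Mg for phosphate and so set the size of the matrix nucleotide pool. Slc25a24 had 24.9, 25.5 and 31.8 CPM in E12, 33.5, 34.5 and 33.5 in VF and 1.99, 5.36 and 7.72 in WT. Every mutant library was above every WT library. It rose by 2.75 ± 0.45 on the log2 scale in VF (edgeR, adjusted p = 0.00169) and by 2.44 ± 0.45 in E12 (adjusted p = 0.00427) against WT, and with the length offset by 1.52 and 1.34. Slc25a25, another ATP-Mg carrier, had 17.6, 18.6 and 19.7 CPM in E12, 11.8, 10.6 and 10.5 in VF and 2.26, 10.5 and 3.74 in WT. E12 was above WT without overlap, and its rise of 1.76 ± 0.53 (edgeR, adjusted p = 0.0258) was lost without any one E12 library or WT 52, on the deposited levels and with the length offset (0.40). Slc25a41, also an ATP-Mg carrier, was chosen after its values were seen, with 3 counts over the 3 E12 libraries, 81 over the 3 VF libraries and 0 over the 3 WT libraries. Against a floor of 3 counts over the WT group it was at least 27.5-fold higher in VF. It was the only member past the filter with no WT count. It passed that filter through the VF libraries alone (39, 20 and 22 counts), so passing it is no separate support for the rise.

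**Figure D3:**
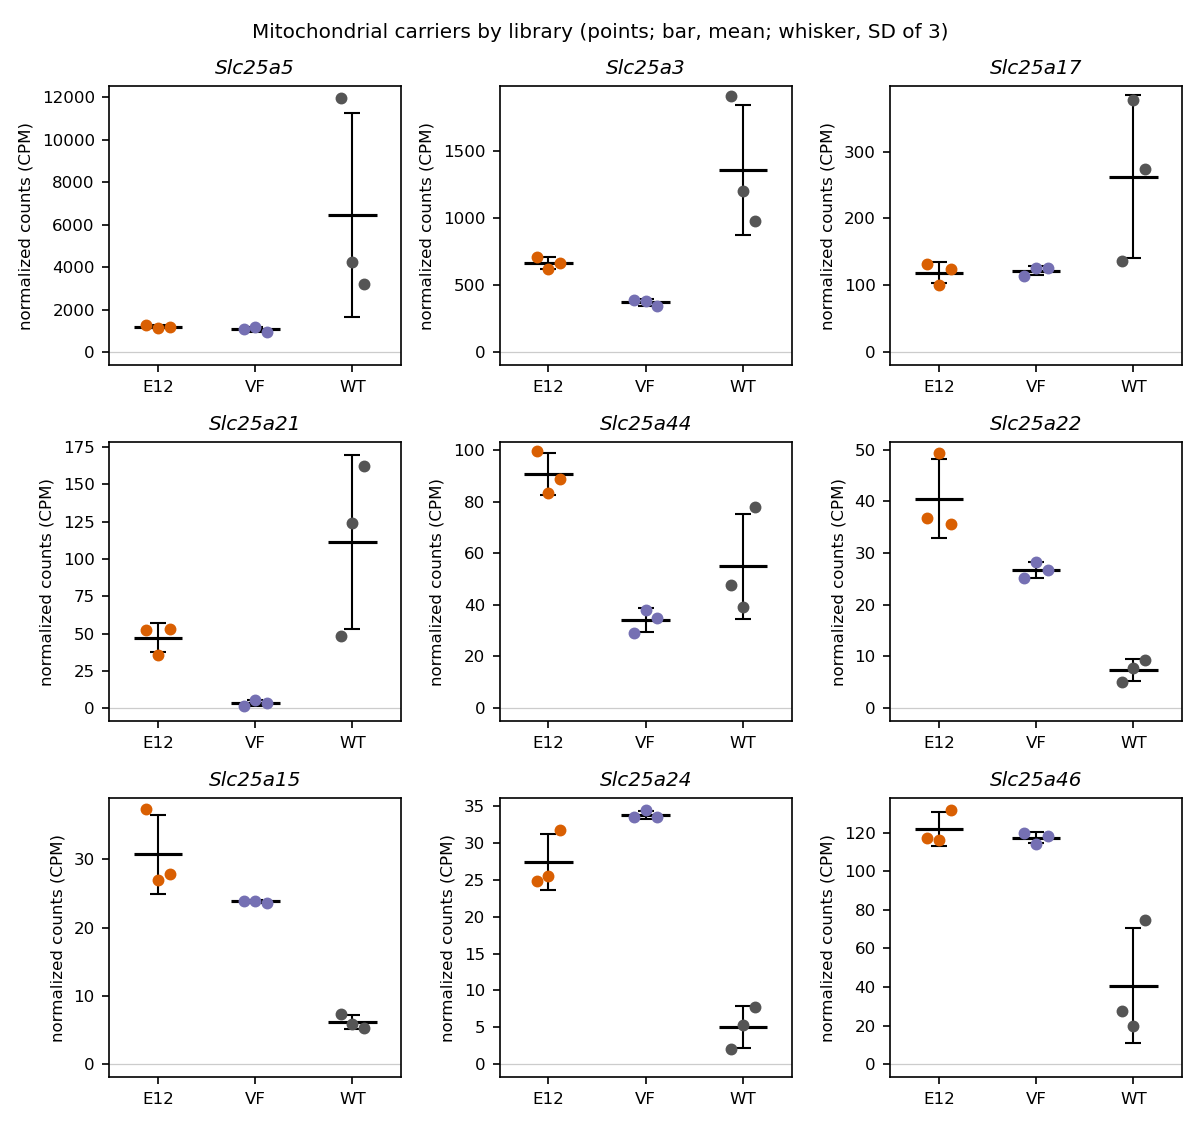
CPM (vertical, linear axis) of 9 carriers in the libraries of E12, VF and WT; points are libraries, bars the mean and whiskers the SD of 3. The upper row shows carriers lower in both mutants than in WT, Slc25a21 is near 0 in VF alone (1.69 to 5.48 CPM), and Slc25a22, Slc25a15, Slc25a24 and Slc25a46 have every mutant library above every WT library.

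Of the 6 tested amino acid carriers, 4 rose in each mutant against WT: Slc25a12, Slc25a15, Slc25a22 and Slc25a29. Slc25a22, a mitochondrial glutamate carrier, had 36.7, 49.3 and 35.5 CPM in E12, 25.2, 28.3 and 26.8 in VF and 5.13, 7.75 and 9.32 in WT. All mutant libraries were higher than all WT libraries. It rose by 1.85 ± 0.30 in VF (edgeR, adjusted p = 0.00149) and by 2.45 ± 0.30 in E12 (adjusted p = 0.00107) on the log2 scale, and both calls held in each of the 20 alternatives, with the length offset at 0.80 and 1.52. Slc25a15, the ornithine carrier of the urea cycle, had 37.4, 27.01 and 27.8 CPM in E12, 23.9, 23.9 and 23.6 in VF and 7.29, 5.89 and 5.34 in WT. The groups were again apart. Its rises were 1.95 ± 0.27 in VF (edgeR, adjusted p = 0.000892) and 2.32 ± 0.28 in E12 (adjusted p = 0.000967), and with the offset 0.54 (adjusted p = 0.196) and 1.05 (adjusted p = 0.0316).

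Slc25a12, the aspartate-glutamate carrier that works in the malate-aspartate shuttle, had 122, 112 and 130 CPM in E12, 149, 123 and 139 in VF and 60.4, 80.2 and 81.9 in WT. The mutant libraries were higher, and the log2 fold changes were 0.88 ± 0.21 in VF (edgeR, adjusted p = 0.00897) and 0.71 ± 0.21 in E12 (adjusted p = 0.0261, lost without any one E12 library, VF 2, VF 3 or WT 52, and with RLE in place of TMM factors or no filter on low counts). With the length offset both turned round, to -0.25 (adjusted p = 0.229) and -0.30 (adjusted p = 0.174), so its direction depends on that choice. Its close relative Slc25a13 had log2 fold changes of 1.33 ± 0.59 in VF and 1.24 ± 0.59 in E12 and was not called (adjusted p = 0.0884 and 0.117). Slc25a29, a carrier of basic amino acids, was low, with 221 counts over the E12 libraries, 385 over the VF libraries and 10 in WT, all 10 in WT 52. It was called higher in VF (adjusted p = 0.00913) and in E12 (adjusted p = 0.018, lost without E12 1) by edgeR.

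Among the 9 cofactor and nucleotide carriers, 3 fell in each mutant and Slc25a16 rose in E12. Slc25a17, a peroxisomal carrier of coenzyme A and related cofactors, had 132, 101 and 124 CPM in E12, 114, 126 and 126 in VF and 136, 378 and 274 in WT. WT 50 lay next to the mutant libraries and the other WT libraries far above. Its changes were -1.11 ± 0.35 in VF (edgeR, adjusted p = 0.0267) and -1.14 ± 0.35 in E12 (adjusted p = 0.0273), the first lost without any one VF library and the second without any one of the 6 mutant libraries, and both on the deposited levels. Slc25a26, which brings S-adenosylmethionine into the matrix for methylation, had 8.51, 8.84 and 6.99 CPM in E12, 8.10, 8.65 and 8.11 in VF and 13.86, 26.8 and 12.4 in WT, with the mutants below WT. Its changes of -1.09 ± 0.37 in VF and -1.13 ± 0.38 in E12 (edgeR, adjusted p = 0.0369 and 0.038) were each lost without any one of the 6 mutant libraries. Slc25a16, a carrier linked to coenzyme A, had 14.2, 11.8 and 11.7 CPM in E12, 7.16, 5.07 and 4.54 in VF and 7.40, 2.68 and 4.39 in WT. E12 stood above the rest, and its rise of 1.39 ± 0.45 against WT (edgeR, adjusted p = 0.0356) was lost without any one library other than WT 50. It was 0.17 with the length offset (adjusted p = 0.826), and was also lost with RLE factors, with no filter, on the deposited levels and in the fit of E12 and WT alone.

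Among the keto acid carriers Slc25a21 stood apart. It carries oxoadipate, a product of lysine and tryptophan breakdown, and lies at chr12:56712634-57197472 on GRCm38.p6 (minus strand). Its level was 52.4, 35.9 and 52.9 CPM in E12, 1.69, 5.48 and 3.28 in VF and 48.0, 124 and 163 in WT. All VF libraries were below all others, while E12 overlapped with WT 50. The log2 fold change was -5.00 ± 0.59 in VF against WT (edgeR, adjusted p = 0.000469), which held in each of the 20 alternatives (-5.93 to -4.67), and -1.25 ± 0.50 in E12 against WT (adjusted p = 0.0732). The E12 fall was called in 6 of the 20 alternatives, at -2.06 with the length offset (adjusted p = 0.00534) and -1.73 without WT 50 (adjusted p = 0.00439). In WT it ranked 7 of the 41 members per kb, at 40.4 ± 21.1 CPM per kb. It shares 3.88% of its exon bases with Pax9 on the opposite strand, and the library kit does not keep the strand. Slc25a11 was not called, with 167, 141 and 148 CPM in E12, 177, 172 and 168 in VF and 222, 267 and 191 in WT, where both mutants lay below WT. Its log2 fold changes were -0.40 ± 0.22 in VF and -0.58 ± 0.22 in E12 (edgeR, adjusted p = 0.163 and 0.0602). With the length offset both were called, at -0.68 and -0.72 (adjusted p = 0.00736 and 0.00841), and on the deposited levels the VF value turned to 0.50 (limma, adjusted p = 0.0377) and the E12 value to 0.05, so its direction depends on that choice. The glutathione carrier Slc25a39 had 313, 280 and 287 CPM in E12, 235, 213 and 219 in VF and 312, 314 and 290 in WT. VF was below both other groups, with a change of -0.46 ± 0.21 against WT that was not called (edgeR, adjusted p = 0.0953). It was called at -0.52 with the length offset (adjusted p = 0.0124), and turned to 0.56 in VF and 0.74 in E12 on the deposited levels (limma, adjusted p = 0.0267 and 0.01).

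Slc25a46, an outer membrane protein that takes part in mitochondrial fission, had 117, 116 and 132 CPM in E12, 120, 114 and 119 in VF and 27.5, 20.0 and 74.8 in WT. All mutant libraries were above WT. The rise of 1.53 ± 0.44 in VF and 1.58 ± 0.44 in E12 (edgeR, adjusted p = 0.0181 and 0.0187) was 0.09 and 0.33 with the length offset and then not called, and the E12 call was also lost without E12 2 or E12 5. Slc25a45 had 34.5, 30.5 and 30.7 CPM in E12, 57.7, 52.3 and 66.8 in VF and 28.3, 21.4 and 33.8 in WT, so that VF was above both others. It rose by 1.08 ± 0.24 in VF against WT (edgeR, adjusted p = 0.00622). Slc25a35 had 8.86, 7.73 and 5.99 CPM in E12, 4.84, 4.58 and 5.15 in VF and 11.5, 19.1 and 13.97 in WT, with no overlap between the groups and VF lowest. It fell by 1.61 ± 0.36 in VF (edgeR, adjusted p = 0.00628). In E12 its change of -0.98 ± 0.35 was not called (edgeR, adjusted p = 0.0501), but was called lower in 12 of the 20 alternatives. However, 31.3% of its exon bases overlap Rangrf on the opposite strand, and reads of the pair cannot be told apart. Rangrf itself fell by 3.58 ± 0.54 in VF and by 2.45 ± 0.52 in E12 (edgeR, adjusted p = 0.00122 and 0.00707). Slc25a27, an uncoupling protein relative, was also called higher in VF (edgeR, adjusted p = 0.0156, lost without VF 3 or WT 51, on the deposited levels and with the length offset, where the adjusted p was 0.0873), with 312 counts over VF against 21 over WT.

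Of the 37 tested members 18, Slc25a11, Slc25a13, Slc25a39 and Slc25a44 among them, were called in neither comparison with WT, with log2 fold changes of -0.77 to 1.80 in VF and -1.03 to 2.54 in E12. With the length offset 7 of these 18 were called lower in VF, among them Slc25a10 (-2.21, adjusted p = 0.000182), Slc25a44 (-2.04), Slc25a42 (-1.96, adjusted p = 0.00176) and Slc25a51 (-1.94, adjusted p = 0.000163), and 5 in E12, among them Slc25a10 (-1.57, adjusted p = 0.00197) and Slc25a51 (-1.07, adjusted p = 0.00452); none was called higher (edgeR). Of all tested genes, 37% were lower and 14.5% higher in VF with the offset, and 27.5% and 10.8% in E12. Several of the 18 had 1 WT library far from the others. Slc25a32, the folate carrier, had 37.6, 44.2 and 42.2 CPM in E12, 17.3, 25.9 and 19.9 in VF and 0.497, 13.5 and 21.05 in WT, so E12 lay above both others while VF and WT overlapped. Slc25a28, which brings iron into the mitochondrion (mitoferrin 2), had 6.64, 8.19 and 6.47 CPM in E12, 11.1, 11.7 and 9.37 in VF and 20.8, 7.88 and 8.30 in WT. WT 50 was its highest library, and both mutants overlapped with WT. Slc25a51, the NAD carrier, had 113, 110 and 146 CPM in E12, 72.2, 77.1 and 81.6 in VF and 66.3, 125 and 114 in WT. E12 was above VF, and WT overlapped with both. The dicarboxylate carrier Slc25a10 had 61.0, 51.5 and 51.8 CPM in E12, 36.7, 40.3 and 41.9 in VF and 37.8, 81.3 and 82.9 in WT, again with WT 50 away from the other WT libraries.

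**Figure D4:**
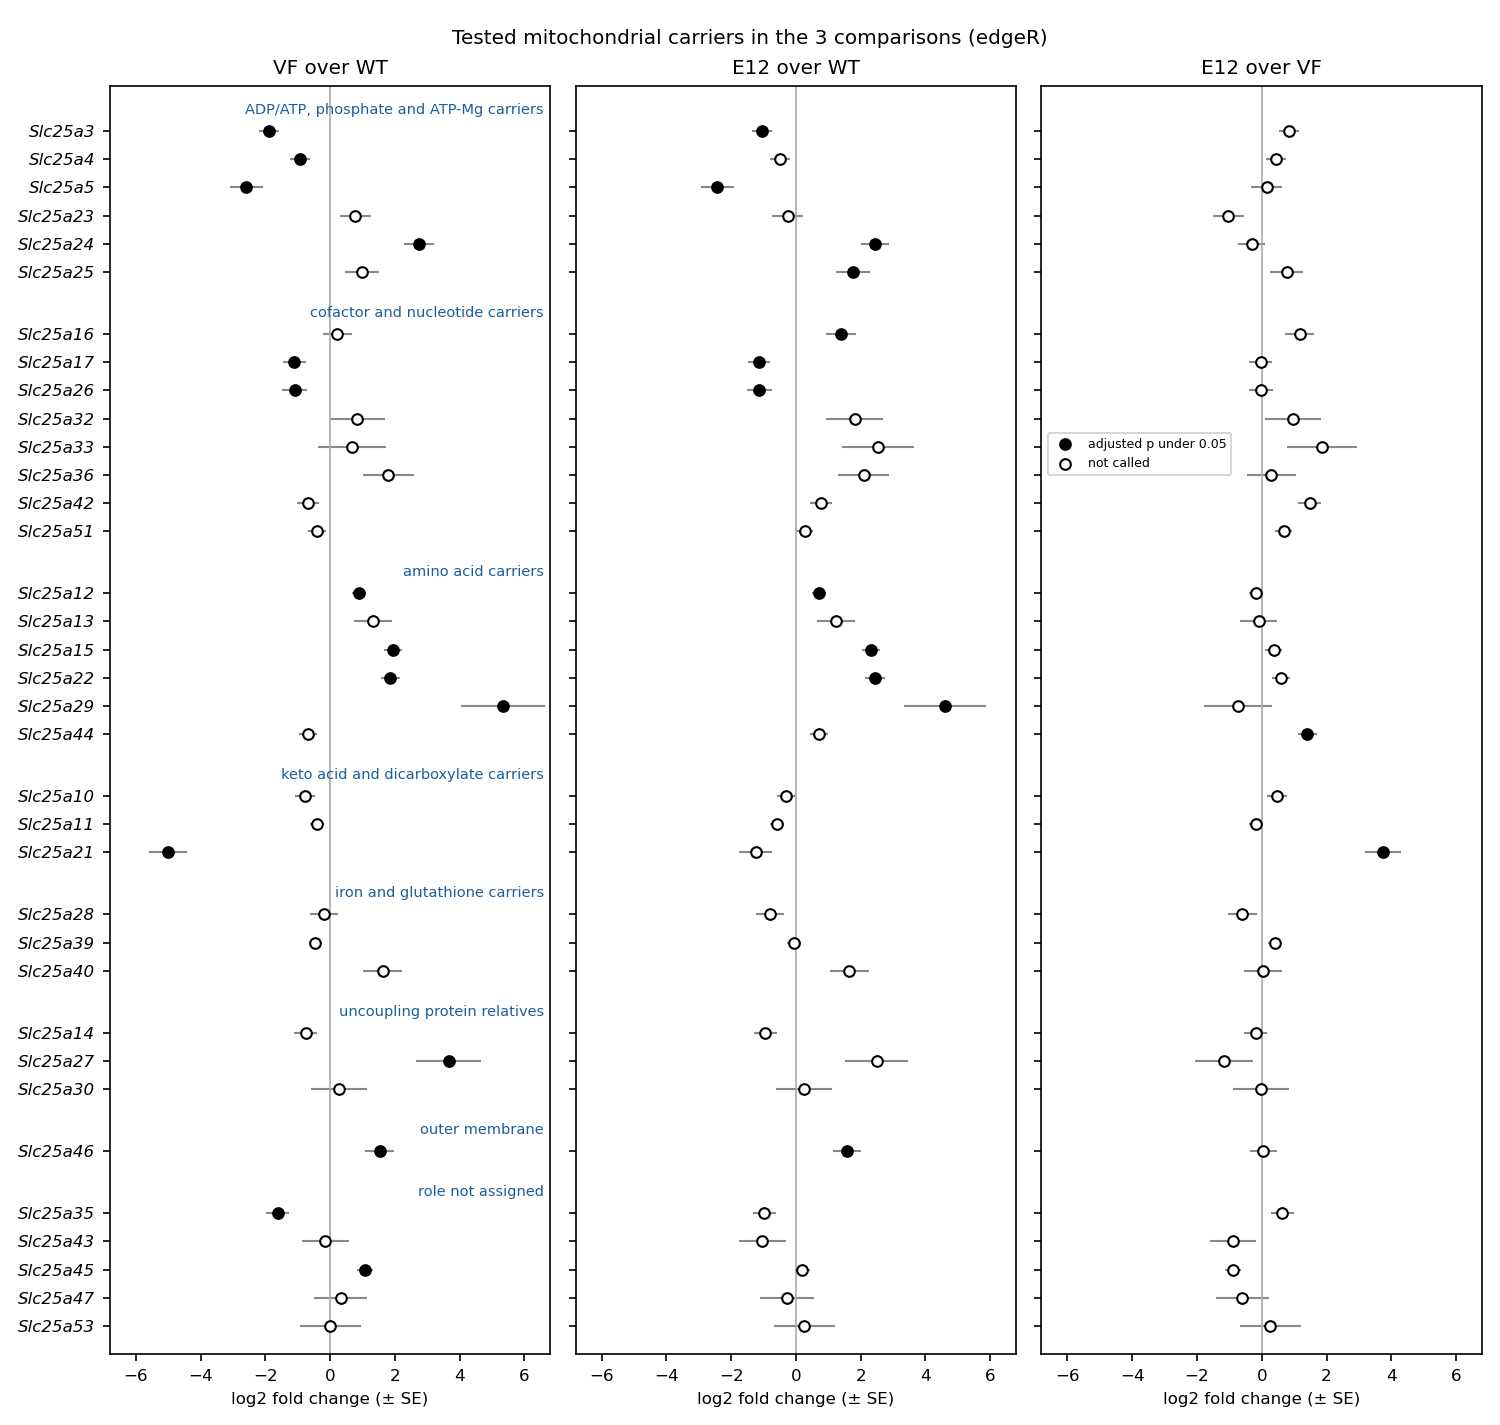
Log2 fold changes with their SE (horizontal) of 35 of the 37 tested carriers, ordered by role down the page, for VF over WT, E12 over WT and E12 over VF; filled points passed an adjusted p of 0.05 in edgeR and open ones did not, and Slc25a41 is among those left out. Slc25a5, Slc25a3 and Slc25a21 lie to the left and Slc25a15, Slc25a22 and Slc25a24 to the right of 0 in VF over WT, and Slc25a21 and Slc25a44 are the filled points in E12 over VF.

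In E12 against VF, 2 of the 37 tested members were higher and 0 lower (edgeR), 5.41% and 0%, beside 2.19% and 1.02% of all genes. At an unadjusted p under 0.05 in edgeR, 6 members were higher and 2 lower. The share of all genes at that limit was not computed, so these counts cannot be read as an excess. DESeq2 called 3 higher and 1 lower, beside 6.32% and 6.14% of all genes. With limma-voom it was also 3 and 1, beside 3.02% and 3.77% of all genes. The medians were 0.16 for the members and -0.05 for all genes. Slc25a21 was 3.75 ± 0.56 higher on the log2 scale in E12 (adjusted p = 0.0137). Slc25a44, a carrier of branched-chain amino acids, had 99.5, 83.5 and 88.7 CPM in E12, 28.96, 38.1 and 35.1 in VF and 47.5, 39.2 and 77.8 in WT. E12 was above both others, by 1.41 ± 0.29 against VF (edgeR, adjusted p = 0.0356). Its changes against WT were 0.72 ± 0.28 in E12 and -0.69 ± 0.28 in VF, neither called (adjusted p = 0.0654 and 0.0697). The VF fall was called in 9 of the 20 alternatives, at -2.04 with the length offset (edgeR, adjusted p = 0.000151), while the E12 value turned to -0.48 with it (adjusted p = 0.11) and was called higher in 4 other alternatives. The Slc25a21 call was lost without VF 1, VF 3, E12 1 or E12 5, and that of Slc25a44 without any one of the 6 mutant libraries, so 0 or 1 were higher without any one of these, beside 0.13% to 0.738% of all genes. Without WT 50 there were 10 higher and 3 lower, beside 12.8% and 10.7% of all genes. Without WT 51, and likewise without WT 52, it was 3 higher and 1 lower, beside 2.83% and 1.97% of all genes in the fit without WT 51 and 5.11% and 3.78% in that without WT 52.

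The fit over 3 groups shares 1 estimate of the spread, WT libraries included. Fitted on the 6 mutant libraries alone, 15 members were higher and 4 lower in E12 (edgeR), 40.5% and 10.8%, beside 25.4% and 22.6% of all genes, with medians of 0.19 for the members and -0.01 for all genes. Besides Slc25a21 and Slc25a44, the higher ones in that fit were led by the pyrimidine nucleotide carrier Slc25a33 (1.90 ± 0.26, adjusted p = 0.000596) and the coenzyme A carrier Slc25a42 (1.51 ± 0.24, adjusted p = 0.00139). Slc25a33 had 18.5, 11.2 and 13.3 CPM in E12 and 4.88, 3.39 and 3.49 in VF. The folate carrier Slc25a32 was 1.01 ± 0.17 higher in E12 (adjusted p = 0.00175) and the phosphate carrier Slc25a3 0.87 ± 0.09 higher (adjusted p = 0.000149). The 4 lower ones were Slc25a23, Slc25a28, Slc25a41 and Slc25a45, of which Slc25a45 had the smallest p (-0.85 ± 0.12, adjusted p = 0.000725). With the length offset over all 9 libraries, 6 members were higher and 0 lower, beside 8.02% and 2.08% of all genes.

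Of 18 tested transporters of the inner and outer membrane outside the family, 3 were higher and 8 lower in VF against WT and likewise 3 and 8 in E12 against WT (edgeR), with medians of -0.63 and -0.81. Of all tested genes 27.7% were higher and 20.9% lower in VF against WT, and 23.9% and 18.1% in E12 against WT. None of these 18 stayed higher with the length offset, which gave 0 higher and 14 lower in VF and 0 and 10 in E12, beside 14.5% and 37% of all genes in VF and 10.8% and 27.5% in E12. The outer membrane channels Vdac2 and Vdac3 fell by 1.76 ± 0.24 and 1.44 ± 0.22 in VF (edgeR, adjusted p = 0.00082 and 0.00127). In E12 against VF only the heme-linked transporter Abcb10 was called among them, higher by 1.85 ± 0.33 (edgeR, adjusted p = 0.0246). The offset added Ucp2, Vdac1 and Vdac2 to the higher ones, 4 in all, beside 8.02% of all genes. Of 10 tested genes of the route by which carriers are imported into the inner membrane, 1 was higher and 7 lower in VF against WT, and 2 and 7 in E12 against WT, to be read beside the same shares of all genes. These counts were 1 and 8 in VF and 1 and 5 in E12 with the offset, where Timm9, Timm10 and Tomm70a were no longer called in E12. Timm29, a part of the carrier translocase, rose by 2.76 ± 0.33 in VF and 3.08 ± 0.33 in E12 (edgeR, adjusted p = 0.000477 and 0.000695). The core subunit Timm22 fell by 2.08 ± 0.40 in VF and by 1.89 ± 0.40 in E12 (edgeR, adjusted p = 0.00333 and 0.0068).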

How the data were processed

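RNA of 9 libraries of sorted MEP was taken with a PicoPure kit and copied by Smart-Seq2, per the labels' protocols, which keeps neither strand nor molecular identifiers. The authors deposited raw gene counts (17769 genes, whole numbers) with a length for each gene, and log2 expression levels, which served here as an alternative. STAR, limma, GRCm38 and mm10 are named, per the submitters' processing notes, with no versions; for the counting tool and annotation nothing is stated in the labels.

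Counts entered 1 edgeR 4.0.16 quasi-likelihood fit of all 9 libraries in R 4.3.3, with group as the term, TMM factors and the filterByExpr filter (13608 genes kept). Its two-sided p-values carry a Benjamini-Hochberg adjustment across those genes, with 0.05 as the limit. They measure the spread between libraries, as no label says these are separate mice; an exact permutation test of 3 against 3 cannot go below 0.1. The length offset is a natural spline of 5 degrees of freedom for each library. The fit was tested on simulated counts that had the same spread in every group and no difference by gene length. That test cannot show how the fit behaves with the wider spread of the WT libraries.

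Members, lists and tests were chosen with earlier results of these data known. Values per library are given for up to 6 called members per direction and comparison (largest change, 10 CPM or more in the higher group, groups apart), the 8 highest per kb and those called in E12 against VF; others were named after their values were seen. Of the members that met the rule, 1 is not reported here. Alternatives used RLE or upper-quartile scaling, a stricter filter or none, DESeq2 1.42.0, limma-voom and limma 3.58.1 on the deposited levels, 2-group fits, the offset, a fold limit, a replicate block, and fewer libraries. Positions (41 of 41 members matched by gene ID) and promoter windows (31 members) are RefSeq, GRCm38.p6, counted from 1; exon overlaps are from GENCODE M21. Figures were drawn with matplotlib 3.10.9.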

Additional observations from a re-analysis of the deposited data

How the results depend on the processing

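Counts of members are given as higher and lower, with the share of all tested genes called in the same setting and direction in brackets. VF against WT had 9 and 8 (27.7% and 20.9%). The length offset gave 5 and 14 (14.5% and 37%), the replicate block 3 and 2 (11.9% and 6.11%) and DESeq2 14 lower (26.2%). It was 5 lower with 2 groups alone (16.2%) and 13 lower without WT 50 and E12 5 (26.6%). Leaving out 1 library gave 8 to 10 higher (20.1% to 32.8%) and 5 to 14 lower (14.1% to 27.1%), the 14 without WT 50 or WT 52. E12 against WT had 8 and 5 (23.9% and 18.1%). The length offset gave 4 and 12 (10.8% and 27.5%), the replicate block 2 and 0 (4.29% and 0.279%) and 2 groups alone 3 and 1 (12.7% and 10.5%). It was 14 higher with limma-voom (30.4%). RLE factors (20.9%), no filter (14.9%), DESeq2 (24.6%) and leaving out WT 50 and E12 5 (21.2%) each gave 9 lower. Leaving out 1 library gave 4 to 12 higher (16.4% to 28.4%) and 1 to 11 lower (9.48% to 24.5%). E12 against VF had 2 and 0 (2.19% and 1.02%). Using 2 groups alone gave 15 and 4 (25.4% and 22.6%), the length offset 6 higher (8.02%) and the deposited levels 4 and 2 (7.15% and 5.96%). It was 10 and 1 without WT 50 and E12 5 (11.3% and 7.1%). Upper-quartile factors (1.23%), DESeq2 (6.14%) and limma-voom (3.77%) each gave 1 lower, and the replicate block 0 higher (0.154%). Leaving out 1 library gave 0 to 10 higher (0.13% to 12.8%) and 0 to 3 lower (0.0072% to 10.7%). The causes were not tested. The replicate block rests on numbers only: same-numbered VF and E12 libraries correlated at 0.01 and 0.10 and differently numbered ones at 0.13 and 0.02. Slc25a12 turned round with the length offset (-0.25 in VF, -0.30 in E12 against WT), and on the deposited levels Slc25a3 in E12 (0.24) and Slc25a4 in VF (0.27) did. RLE factors moved the median of all genes to 0.21 in VF and 0.17 in E12 against WT. The call was kept in all 20 alternatives for 3 of 17 members in VF against WT, 2 of 13 in E12 against WT and 0 of 2 in E12 against VF. Members with few counts, such as Slc25a41 and Slc25a29, are limited by depth.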
